A study of Mus musculus with 12 samples.

Results

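The genes described here make, recycle and use nicotinamide adenine dinucleotide (NAD), the coenzyme that carries electrons in energy metabolism and that several signalling enzymes break down as a substrate. They are 10 genes chosen by symbol: Nampt, Nmnat1, Nmnat3, Nmrk1 and Nmrk2 (synthesis), Nnt (exchange of hydride between NAD and NADP), and Sirt1, Sirt3, Parp1 and Cd38 (consumption). The table of transcript abundances in mouse heart held 33641 gene symbols in 105129 transcript rows, and all 10 genes were among them, with 51 transcript rows. All 10 also passed the filter on low values that 13158 genes passed, so none is missing from the tests.

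In most tissues, the heart included, NAD is rebuilt mainly from nicotinamide. Nampt, the rate-limiting enzyme of this salvage route, makes nicotinamide mononucleotide, which the Nmnat enzymes join to an adenylate group, Nmnat1 in the nucleus and Nmnat3 mainly in mitochondria. The kinases Nmrk1 and Nmrk2 enter the route from nicotinamide riboside, and Nmrk2 is the form known from muscle. Sirtuins and Parp1 release nicotinamide from NAD as they deacylate or ADP-ribosylate proteins, and Cd38 hydrolyses NAD at membranes.

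The study measured myocardial RNA of wild-type C57BL/6 males, with 3 mice in each of 4 groups. Hearts had sham surgery or a myocardial infarction (MI), and from 2 weeks after surgery, at about 10 weeks of age, the mice received weekly intraperitoneal injections of vehicle or of prednisone, a synthetic glucocorticoid, at 1 mg/kg, given at lights-on for 6 weeks. The hearts were collected 24 hours after the final dose, at about 16 weeks of age, and sequenced as stranded mRNA libraries. The labels do not say which region of the infarcted heart was taken, and they give the strain only as C57BL/6. Values are TPM, a unit of transcript abundance that is scaled for transcript length and sums to 1000000 in each library. They carry no sequencing depth, so no counting interval can be given for them. Each sample came from its own mouse, with 3 per group. In the main tests p-values rest on the spread between mice within groups, pooled over the 4 groups and moderated over all tested genes.

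All 12 libraries held heart RNA: the summed TPM of 6 cardiomyocyte markers lay between 20905 and 34925, and that of 5 skeletal muscle markers at or below 4.23. MI vehicle replicate 3 stood apart. Its T cell markers Cd3e and Cd3d summed to 91.2 TPM, against at most 4.45 in the other 11 libraries, its 3 B and plasma cell markers to 271 against at most 101, and its 3 adipocyte markers to 428 against at most 189. It also held 14307 genes at 1 TPM or more, against at most 12772 elsewhere, and its median-ratio scale factor was 1.69 where the others lay between 0.86 and 1.13. The factor measures how high the typical gene of a library stands. Transcripts of the mitochondrial genome made up 24.6% and 21.6% of the TPM in MI prednisone replicates 1 and 2 and 23.1% in MI vehicle replicate 3, against 32.4% to 42.0% in the other 9. Results that rest on MI vehicle replicate 3 are given with and without it.

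Across the 12 libraries the 10 genes spanned a wide range of abundance on the length-scaled TPM scale. Nnt was the most abundant with a mean of 96.6 TPM, followed by Nampt (39.0), Sirt3 (26.7), Parp1 (15.6), Nmnat1 (10.5) and Nmnat3 (8.90). Nmrk2 (5.39), Cd38 (4.17), Sirt1 (3.63) and Nmrk1 (2.80) were the least abundant. In sham vehicle hearts the ranges of Nmnat1 (8.47 to 10.7 TPM) and Nmnat3 (9.15 to 10.6 TPM) overlapped. Those of Nmrk1 (2.81 to 3.09 TPM), Nmrk2 (2.55 to 3.30 TPM) and Cd38 (2.74 to 3.33 TPM) overlapped one another, and Sirt1 (3.13 to 3.49 TPM) overlapped the last of these.

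**Figure D1:**
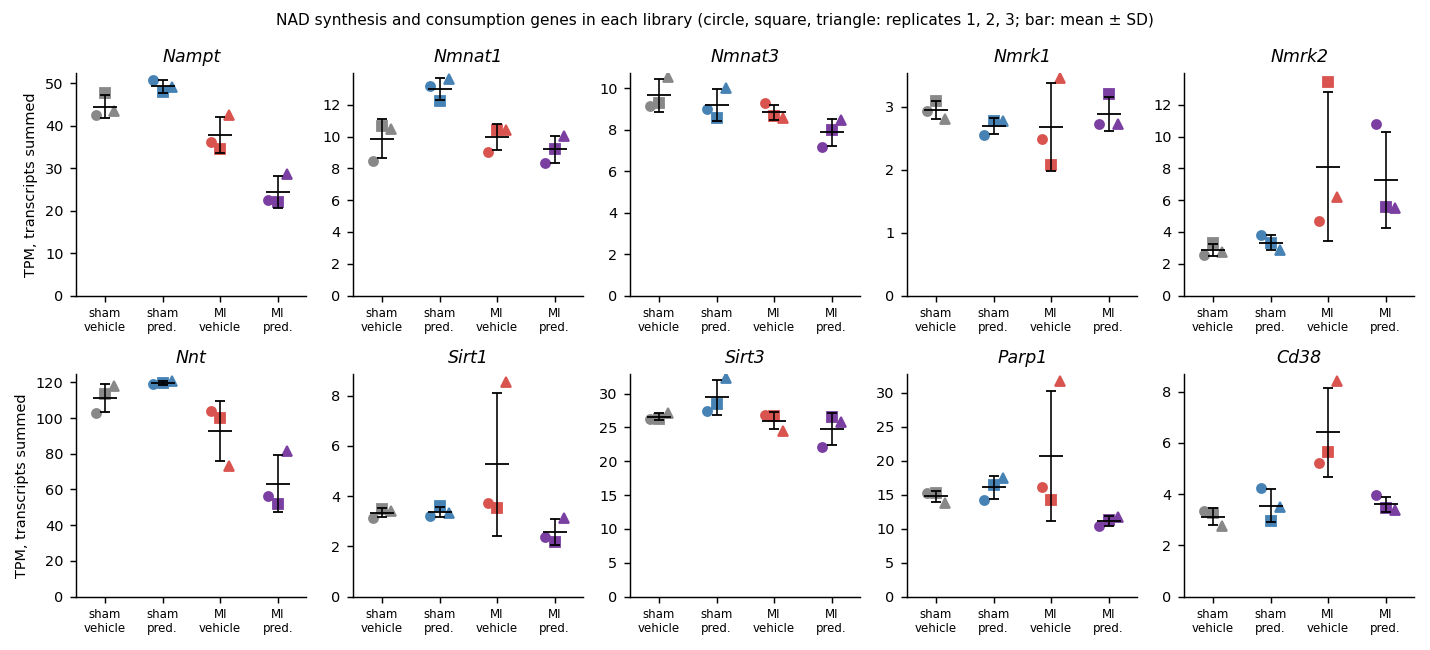
TPM of each of the 10 genes, summed over transcripts (vertical axes, each from 0), in the 4 groups; each point is a library and the bars are the mean ± SD of 3. Nampt and Nnt are lowest in MI prednisone hearts, Nmrk2 is above both sham groups in all 6 infarcted hearts, and the high Sirt1 and Parp1 values of 8.53 and 31.6 TPM belong to MI vehicle replicate 3.

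Infarction raised the riboside kinase Nmrk2 and the NAD hydrolase Cd38 in vehicle hearts, and lowered Nampt, Nmnat1 and Nnt in prednisone hearts. With limma on log2(TPM + 1) and Benjamini-Hochberg adjustment over all 13158 genes, MI against sham under vehicle raised 2 of the 10 genes and lowered 0, where 15.1% of all genes rose. MI against sham under prednisone raised 0 and lowered 3, where 14.1% of all genes fell. Prednisone against vehicle in infarcted hearts raised 0 and lowered 5 (Nampt, Nnt, Sirt1, Parp1 and Cd38), where 34.9% of all genes fell. Prednisone against vehicle in sham hearts changed 0 of the 10, where 0.114% of all genes (15) changed. In that comparison 469 of all genes and 1 of the 10, Nmnat1, had an unadjusted p under 0.05. Several of these counts rest on few libraries. The count for MI under vehicle was 0 without sham vehicle replicate 1 or 3 and 1 without any other sham library or MI vehicle replicate 2 or 3. That for prednisone after MI was 2 without MI prednisone replicate 1 or 2, and 0 when only the 6 infarcted libraries were fitted. The comparisons share groups of libraries, so their values are given side by side and are not independent.

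The typical gene shifted too, and the shift sets how these counts read. The median log2 change of all tested genes was 0.39 for MI against sham under vehicle, where that of the 10 genes was -0.01. It was -0.41 for prednisone against vehicle after MI, against -0.35 for the 10 genes, and -0.06 for MI against sham under prednisone, against -0.27. After each library was divided by its median-ratio scale factor, the median of all genes lay within 0.02 of 0 in these 3 comparisons, and that of the 10 genes was -0.42, 0.08 and -0.20 in the same order. On this rescaled scale MI under vehicle raised 0 and lowered 2 of the 10 (Nampt and Nmrk1; 3.22% of all genes fell), MI under prednisone lowered 3 (Nampt, Nnt and Parp1; 14.6% fell), and prednisone after MI lowered 0 and raised 1 (Nmrk1; 14.3% rose). Of the 5 genes lowered by prednisone after MI on the deposited scale, 0 were called on the rescaled scale, and the share of all genes that fell was 13.8% there.

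**Figure D2:**
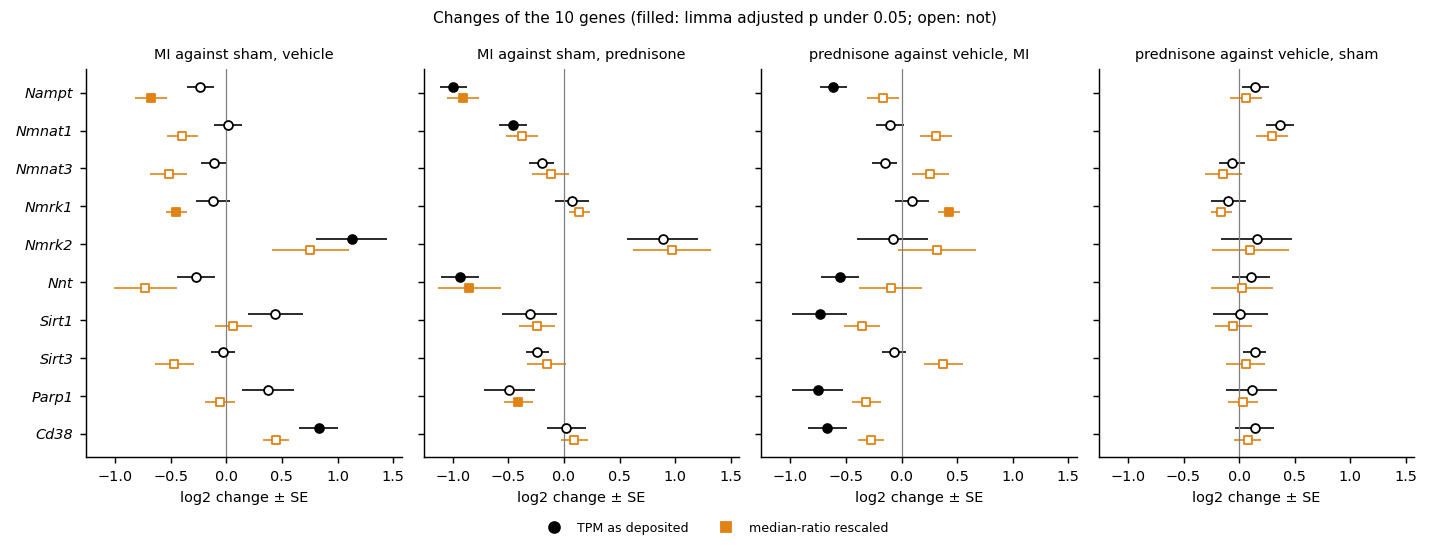
Log2 change ± SE (horizontal axes) of each gene in 4 comparisons, on TPM as deposited (black circles) and after median-ratio rescaling (orange squares); filled symbols passed the test. Nampt and Nnt are filled on both scales for MI against sham under prednisone, whereas the 5 filled circles for prednisone against vehicle after MI have open squares.

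Nampt was the member with the largest fall in MI prednisone hearts relative to sham prednisone hearts. It stood at 42.5, 47.7 and 43.4 TPM in sham vehicle hearts, 50.9, 48.0 and 49.0 in sham prednisone, 36.3, 34.5 and 42.5 in MI vehicle, and 22.4, 22.1 and 28.6 in MI prednisone. The 3 MI prednisone hearts were below all 9 others, and the 3 MI vehicle hearts reached the edge of the sham vehicle range. Against sham under prednisone Nampt fell by 1.00 on the log2 scale (SE 0.12, limma adjusted p = 0.0012), by 0.91 after rescaling (adjusted p = 0.0034) and by 0.71 after a correction for transcript length (adjusted p = 0.0048). This call and that for prednisone after MI held in all 12 fits that left out 1 library. Under vehicle its change was -0.24 (adjusted p = 0.15), and it passed the test after rescaling (-0.68, adjusted p = 0.032) and after the length correction (-0.65, adjusted p = 0.022). Prednisone after MI lowered it by 0.61 (SE 0.12, adjusted p = 0.0039) on the deposited scale, but the change was -0.16 after rescaling (adjusted p = 0.42) and -0.01 after the length correction (adjusted p = 0.94). Relative to the typical gene, then, the infarction difference passed the test under both treatments, and the prednisone difference among infarcted hearts did not.

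The transcripts of Nampt did not move alike. Nampt-201 (ENSMUST00000020886.8, 4527 bases in 11 exons) encodes the enzyme and held between 80.0% and 97.3% of the gene's TPM. Nampt-202 (ENSMUST00000218491.1), a processed transcript of 411 bases with no coding sequence, stood at 3.92, 4.38 and 4.50 TPM in sham vehicle hearts, 6.03, 4.13 and 3.87 in sham prednisone, 3.77, 4.15 and 6.03 in MI vehicle, and 0.74, 0.60 and 1.08 in MI prednisone. All 3 MI prednisone hearts lay below the other 9, and the other 3 groups overlapped. With prednisone after MI Nampt-202 fell by 1.63 (SE 0.20, adjusted p = 0.00036) and by 1.30 after rescaling (adjusted p = 0.00087). The coding Nampt-201 fell by 0.45 (SE 0.11, adjusted p = 0.013), with 0.00 after rescaling (adjusted p = 0.99). Of the 20 transcripts of the 10 genes that were tested, 7 changed in this comparison (33.0% of all transcripts), 8 in MI against sham under prednisone (22.3%), 1 in MI against sham under vehicle (2.84%), 0 with prednisone in sham hearts (0.0540%) and 7 by the interaction (18.7%).

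Of the Nmnat genes, which make NAD from the mononucleotide, Nmnat1 was called in 1 comparison and Nmnat3 in 0. Nmnat1 stood at 8.47, 10.7 and 10.5 TPM in sham vehicle hearts, 13.2, 12.2 and 13.6 in sham prednisone, 9.00, 10.4 and 10.4 in MI vehicle, and 8.33, 9.20 and 10.1 in MI prednisone. The sham prednisone hearts were above all others. Against them the MI prednisone hearts were lower by 0.46 (SE 0.12, limma adjusted p = 0.029), which did not pass after rescaling (-0.38, adjusted p = 0.073) or after the length correction (-0.50, adjusted p = 0.056). It was also lost without any 1 of the sham prednisone libraries or MI prednisone replicate 1 or 2 (adjusted p up to 0.12). Prednisone against vehicle in sham hearts gave 0.37 for Nmnat1 (unadjusted p = 0.012, adjusted p = 1.00). Nmnat3 lay between 9.15 and 10.6 TPM in sham vehicle hearts, 8.56 and 10.0 in sham prednisone hearts, 8.58 and 9.28 in MI vehicle, and 7.18 and 8.47 in MI prednisone hearts. It passed in no comparison on either scale.

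Both Nmnat1 and Nmnat3 are spread over more than 1 transcript, and for Nmnat1 the balance between them differed in MI prednisone hearts. The balance of a transcript is its log2(TPM + 1) less that of all other transcripts of its gene, a measure that a common scale factor hardly touches. Nmnat1-201 (1238 bases, of which 855 code) stood at 4.57, 6.20 and 6.62 TPM in sham vehicle hearts, 8.78, 6.45 and 8.76 in sham prednisone, 5.16, 7.01 and 5.79 in MI vehicle, and 3.27, 2.69 and 5.23 in MI prednisone. Nmnat1-203 (2657 bases, of which 447 code) lay between 3.30 and 4.48 TPM in the other 3 groups and at 4.64, 6.30 and 4.36 in MI prednisone. The MI prednisone hearts thus held the lower values of the first and the higher values of the second, with overlap in both. In prednisone against vehicle after MI the balance of Nmnat1-201 fell by 0.97 (SE 0.32, adjusted p = 0.037) and that of Nmnat1-203 rose by 0.93 (SE 0.30, adjusted p = 0.036). Neither passed without MI vehicle replicate 3 (adjusted p = 0.053 and 0.063). In MI against sham under prednisone the changes were -1.06 and 1.28 (limma adjusted p = 0.026 and 0.0086). These 2 passed without MI vehicle replicate 3 too (adjusted p = 0.031 and 0.012). Of all transcripts tested for balance, 33.0% passed in that comparison. The balance of Nmnat3-201 (2166 bases) and Nmnat3-202 (1898 bases) passed in no comparison.

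Of the nicotinamide riboside kinases, Nmrk2 was higher after infarction. It stood at 2.55, 3.30 and 2.72 TPM in sham vehicle hearts, 3.80, 3.28 and 2.86 in sham prednisone, 4.68, 13.4 and 6.23 in MI vehicle, and 10.8, 5.56 and 5.51 in MI prednisone. All 6 infarcted hearts were above all 6 sham hearts, and the MI groups overlapped each other. MI raised Nmrk2 by 1.13 under vehicle (SE 0.32, limma adjusted p = 0.041). This call was lost after rescaling (0.75, adjusted p = 0.19), after the length correction (0.70, adjusted p = 0.24), without MI vehicle replicate 2, the highest library (0.74, adjusted p = 0.067), without replicate 3 of that group (1.24, adjusted p = 0.062), and without any 1 of the 6 sham libraries (adjusted p up to 0.13). Under prednisone the change was 0.89 (SE 0.32, adjusted p = 0.083), which passed without MI vehicle replicate 2 (adjusted p = 0.028). The groups did not overlap for 3 of the 10 genes, all higher, under vehicle (Nmrk2, Sirt1 and Cd38), where 40.8% of all genes were higher without overlap. Under prednisone they did not overlap for 1 higher (Nmrk2; 12.9% of all genes) and 7 lower (32.2%).

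Nmrk1 lay between 2.81 and 3.09 TPM in sham vehicle hearts, 2.54 and 2.77 in sham prednisone hearts, 2.08 and 3.46 in MI vehicle, and 2.72 and 3.20 in MI prednisone hearts. No comparison passed on the deposited scale. After rescaling its values were 2.38, 1.83 and 2.04 in MI vehicle and 3.06, 3.24 and 3.14 in MI prednisone hearts. On that scale it was lower in MI than in sham hearts under vehicle (-0.45, limma adjusted p = 0.033) and higher with prednisone after MI (0.43, adjusted p = 0.010). The transcript that held most of its TPM has no entry in the annotation used for lengths, so no length-corrected value could be given.

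Nnt, the inner-membrane transhydrogenase that uses the proton gradient to make NADPH from NADH, carried the largest change in transcript balance of the 10 genes in infarcted hearts given prednisone. The gene lies on the minus strand at chr13:119335448-119408997 (GRCm38). Nnt-202 (ENSMUST00000099149.9) has 17 exons, 3464 bases and 2505 coding bases. Nnt-201 (ENSMUST00000069902.12) has 15 exons, 3122 bases and 2163 coding bases, and in the annotation it differs from Nnt-202 only in lacking exons 8 (chr13:119374629-119374774, 146 bases) and 9 (chr13:119372396-119372591, 196 bases). Both exons are coding throughout, and together they hold 342 bases, or 114 codons with a remainder of 0, so the reading frame is kept after them. C57BL/6J, the substrain of the reference genome, is known to carry a deletion within Nnt, and the labels do not name the substrain of these mice. The exon models, exon numbers, coding lengths and levels given here are therefore those of the reference annotation, made on the genome with the deletion. Neither transcript should be read as the complete coding sequence of the enzyme. Whether these mice carried the deletion was not tested. Their sequences are shown because only reads from these bases, or across the junction that replaces them, tell the transcripts apart. Capitals mark the bases present only in Nnt-202, and lower case marks 20 bases of the neighbouring exons, all 5′ to 3′ on the minus strand.
Nnt exon 8: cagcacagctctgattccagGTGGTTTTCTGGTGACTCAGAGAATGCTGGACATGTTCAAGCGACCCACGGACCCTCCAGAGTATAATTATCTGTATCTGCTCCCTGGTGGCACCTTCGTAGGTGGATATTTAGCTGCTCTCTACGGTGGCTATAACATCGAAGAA
Nnt exon 9: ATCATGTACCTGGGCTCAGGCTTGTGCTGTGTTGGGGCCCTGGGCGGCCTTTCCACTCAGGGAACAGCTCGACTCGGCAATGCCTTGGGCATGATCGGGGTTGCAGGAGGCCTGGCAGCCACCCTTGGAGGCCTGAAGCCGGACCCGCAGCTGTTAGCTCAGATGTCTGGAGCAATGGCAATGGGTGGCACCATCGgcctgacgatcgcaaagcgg
Nnt-201 junction: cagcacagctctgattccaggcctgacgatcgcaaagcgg

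**Figure D3:**
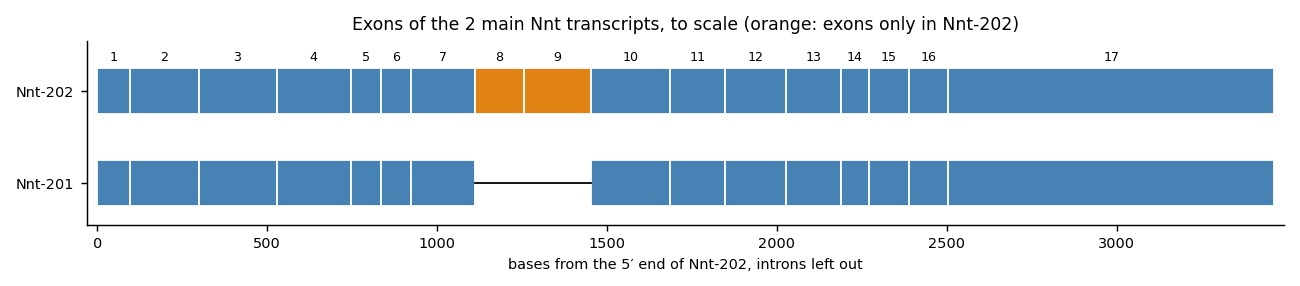
Exons of Nnt-202 and Nnt-201 drawn to scale, in bases from the 5′ end of Nnt-202 with introns left out; boxes are exons and the line spans the exons absent from Nnt-201. Exons 8 and 9 (orange), 342 bases together, are the sole difference between the transcripts.

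Summed over transcripts, Nnt stood at 103, 113 and 118 TPM in sham vehicle hearts, 119, 119 and 121 in sham prednisone, 104, 100.0 and 73.3 in MI vehicle, and 56.1, 52.0 and 81.4 in MI prednisone. The MI prednisone hearts were below all sham hearts and overlapped the MI vehicle hearts through replicate 3 of each. Nnt fell in MI prednisone against sham prednisone hearts by 0.94 (SE 0.17, limma adjusted p = 0.0050), by 0.85 after rescaling (adjusted p = 0.048), and by 0.72 without passing after the length correction (adjusted p = 0.087). Prednisone against vehicle after MI lowered it by 0.55 (SE 0.17, adjusted p = 0.027), with -0.10 after rescaling (adjusted p = 0.82) and -0.01 after the length correction (adjusted p = 0.99). The prednisone call was lost without replicate 1 or 2 of either MI group (adjusted p up to 0.092).

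Its transcripts moved in opposite directions. Nnt-202 stood at 95.8, 103 and 106 TPM in sham vehicle hearts, 107, 111 and 113 in sham prednisone, 94.4, 92.8 and 62.3 in MI vehicle, and 34.7, 25.3 and 60.7 in MI prednisone. Nnt-201, which lacks exons 8 and 9, stood at 5.37, 9.76 and 11.2 TPM in sham vehicle hearts, 10.9, 7.48 and 6.58 in sham prednisone, 9.03, 6.79 and 10.0 in MI vehicle, and 21.1, 26.1 and 19.8 in MI prednisone hearts. The 3 MI prednisone hearts were the lowest of the 12 for Nnt-202 and the highest for Nnt-201, with no overlap with the other 9. Nnt-201 made up 37.6%, 50.2% and 24.4% of the gene's TPM there, against 5.23% to 13.7% in the other 9 libraries. The share was largest in replicates 1 and 2, which also had the low mitochondrial share, and in replicate 3, whose mitochondrial share of 35.9% lay within the range of the other libraries, it was still above those 9. The part of the mitochondrial share in this was not tested. Prednisone after MI raised Nnt-201 by 1.29 (SE 0.26, adjusted p = 0.0041) and by 1.71 after rescaling (adjusted p = 0.0014), whereas Nnt-202 fell by 1.10 (SE 0.26, adjusted p = 0.0090) on the deposited scale and by 0.64, not passing, after rescaling (adjusted p = 0.22).

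**Figure D4:**
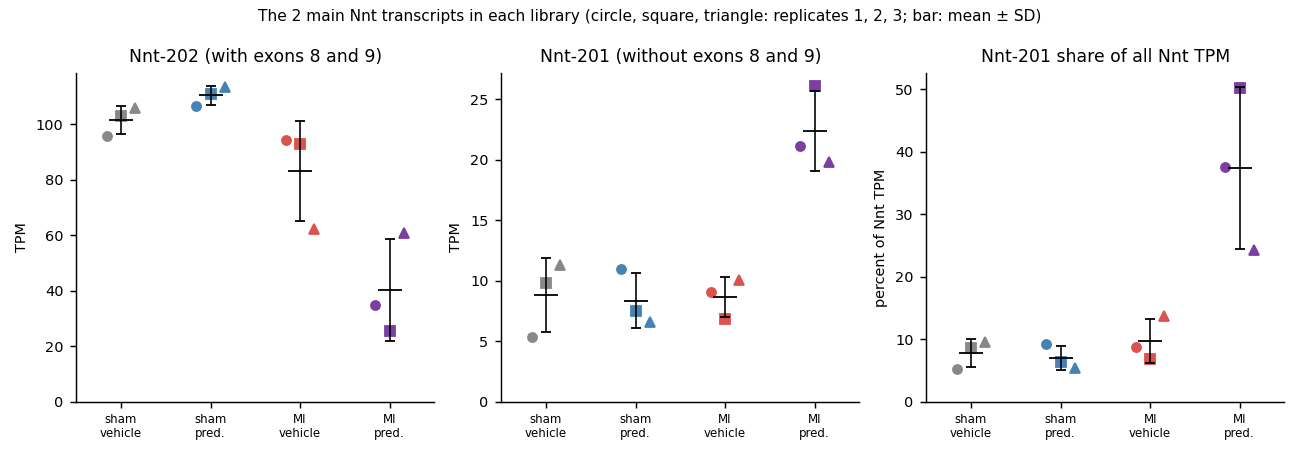
TPM of Nnt-202 and of Nnt-201, and the share of Nnt-201 in the gene's TPM in percent, by group (all axes from 0); each point is a library and the bars are the mean ± SD of 3. The share in the 3 MI prednisone hearts, 24.4% to 50.2%, lies above the 5.23% to 13.7% of the other 9.

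The balance of Nnt-201 against the rest of the gene rose by 2.37 (SE 0.42, adjusted p = 0.0022) with prednisone after MI and by 2.86 (SE 0.42, adjusted p = 0.00076) in MI against sham under prednisone. In sham hearts prednisone gave -0.16 (SE 0.42, adjusted p = 0.99), and MI under vehicle gave 0.32 (SE 0.42, adjusted p = 0.92). The interaction of prednisone and MI was 2.54 (SE 0.60, adjusted p = 0.016). Such changes were common in these libraries and not particular to Nnt. Of 17769 transcripts tested for balance, 31.7% passed with prednisone after MI and 33.0% in MI against sham under prednisone, against 0.0394% in MI against sham under vehicle and 0.00563% with prednisone in sham hearts. The interaction passed for 18.6%. With prednisone after MI, 943 of them (5.31%) changed by at least as much as Nnt-201 in either direction. Both comparisons with many calls contain the MI prednisone libraries.

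Transcript balance could be tested for 14 transcripts of 7 of the genes. With prednisone after MI 8 of the 14, from 5 genes, passed, where 31.7% of all transcripts tested for balance did. In MI against sham under prednisone 9 passed, from 5 genes, where 33.0% of all did. The 2 listed transcripts of Nnt, of Nmnat1, of Nampt and of Nmnat3 are near mirror images, so each pair amounts to about 1 observation. In MI against sham under vehicle and with prednisone in sham hearts 0 passed by limma, with 1 of the 14 (Sirt1-201) at an unadjusted p under 0.05 in the first and 0 in the second. Of all 17769 transcripts tested for balance, 1435 and 1157 had an unadjusted p under 0.05 in the same order. Besides the Nnt and Nmnat1 transcripts, Nampt-201 rose in balance by 1.33 (SE 0.30, adjusted p = 0.0067), Nampt-202 fell by 1.15 (SE 0.20, adjusted p = 0.0018), Sirt1-201 fell by 1.95 (SE 0.30, adjusted p = 0.0011) and Sirt3-202 rose by 0.85 (SE 0.28, adjusted p = 0.040), all with prednisone after MI. The Sirt3-202 call was lost without MI vehicle replicate 3 (adjusted p = 0.12). The added 1 TPM shrinks balance changes of low genes such as Sirt1, so the order of these changes depends on it. The mean share of Sirt1-201 in its gene was 66.1% in MI vehicle and 12.9% in MI prednisone hearts.

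**Figure D5:**
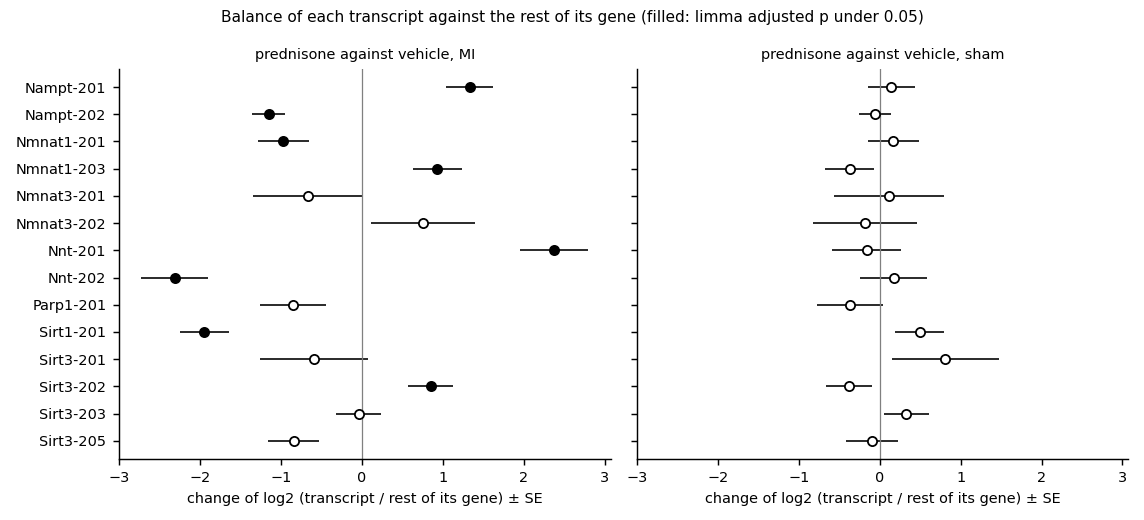
Change in balance (log2 of a transcript against the rest of its gene) ± SE for 14 transcripts, with prednisone against vehicle after MI (left) and in sham hearts (right); filled points passed the test. There are 8 filled points on the left, with Nnt-201 at 2.37 and Nnt-202 at -2.31 the widest, and 0 on the right.

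Of the genes that consume NAD, Sirt1, a deacetylase of nucleus and cytosol, stood at 3.13, 3.49 and 3.40 TPM in sham vehicle hearts, 3.19, 3.59 and 3.34 in sham prednisone, 3.74, 3.51 and 8.53 in MI vehicle, and 2.36, 2.16 and 3.14 in MI prednisone. MI vehicle replicate 3 alone was far above the rest, and the MI prednisone hearts were at or below the sham range. Prednisone after MI lowered Sirt1 by 0.74 (SE 0.25, limma adjusted p = 0.037), and by 0.39 without MI vehicle replicate 3 (adjusted p = 0.045). The change after rescaling was -0.36 (adjusted p = 0.13). The call was lost without any 1 of the 6 sham libraries and without MI prednisone replicate 1 or 2 (adjusted p up to 0.10).

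The transcript Sirt1-201 (3905 bases, 9 exons), which encodes the full enzyme, stood at 1.53, 1.24 and 0.84 TPM in sham vehicle hearts, 1.43, 2.02 and 1.60 in sham prednisone, 2.00, 2.72 and 5.74 in MI vehicle, and 0.18, 0.39 and 0.41 in MI prednisone. The MI prednisone hearts were the lowest of the 12, and the MI vehicle hearts were above the other 9 except for 1 sham prednisone heart at 2.02, which exceeded the lowest of them. Prednisone after MI lowered Sirt1-201 by 1.67 (SE 0.28, adjusted p = 0.0017), by 1.38 after rescaling (adjusted p = 0.0012) and by 1.34 without MI vehicle replicate 3 (adjusted p = 0.0025). The fold of so low a transcript is understated on the log2(TPM + 1) scale. Sirt1-205, whose mean was 0.61 TPM and which was picked out after its values were seen, lay between 0 and 0.87 TPM in the other 3 groups and at 1.21, 1.34 and 1.23 in MI prednisone hearts.

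Sirt3, the main deacetylase of mitochondria, was the steadiest of the more abundant members on the deposited scale. It lay between 26.2 and 27.2 TPM in sham vehicle hearts, 27.5 and 32.3 in sham prednisone hearts, 24.5 and 26.8 in MI vehicle, and 22.0 and 26.5 in MI prednisone hearts, and it passed in no comparison on the deposited or the rescaled scale. After rescaling it stood at 29.6, 25.9 and 31.5 TPM in sham vehicle and 25.6, 23.5 and 14.5 in MI vehicle hearts, without overlap. The change there was -0.47 (limma adjusted p = 0.12). Its main transcript Sirt3-202 (1416 bases) held 71.8%, 69.8% and 63.4% of the gene's TPM in MI prednisone hearts, against 43.2% to 63.2% in the other 9. The shorter Sirt3-205 (784 bases) was lower by 0.97 in MI than in sham hearts under prednisone (SE 0.26, limma adjusted p = 0.023), and not after rescaling (-0.90, adjusted p = 0.054).

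Parp1, the main DNA-damage responsive ADP-ribosyl transferase, stood at 15.2, 15.2 and 13.8 TPM in sham vehicle hearts, 14.2, 16.4 and 17.5 in sham prednisone, 16.1, 14.2 and 31.6 in MI vehicle, and 10.3, 11.3 and 11.7 in MI prednisone. The MI prednisone hearts were below all 9 others, and MI vehicle replicate 3 was above all others. Parp1 fell with prednisone after MI by 0.75 (SE 0.23, limma adjusted p = 0.026), by 0.41 without MI vehicle replicate 3 (adjusted p = 0.018), and by 0.32, not passing, after rescaling (adjusted p = 0.099). Without MI prednisone replicate 1 or 2 it did not pass (adjusted p = 0.078 and 0.059). In MI against sham under prednisone the change was -0.49 (adjusted p = 0.18), which passed after rescaling (-0.41, adjusted p = 0.045) and without MI vehicle replicate 3 (-0.49, adjusted p = 0.0051), where the SE was 0.10 in place of 0.23.

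Cd38, an NAD-hydrolysing ectoenzyme found on immune and endothelial cells, was higher after infarction in vehicle hearts. It stood at 3.33, 3.27 and 2.74 TPM in sham vehicle hearts, 4.24, 2.95 and 3.48 in sham prednisone, 5.20, 5.65 and 8.40 in MI vehicle, and 3.95, 3.46 and 3.39 in MI prednisone. The 3 MI vehicle hearts were above all 9 others, and the other groups overlapped. MI raised Cd38 by 0.83 under vehicle (SE 0.18, limma adjusted p = 0.018), and by 0.65 without MI vehicle replicate 3 (adjusted p = 0.026), but did not pass without sham vehicle replicate 1 or 3 (adjusted p = 0.064 and 0.084). After rescaling the MI vehicle values were 4.97, 4.98 and 4.96 TPM, and the change was 0.45 (adjusted p = 0.050, above the threshold of 0.05 before rounding). Prednisone after MI lowered Cd38 by 0.67 (SE 0.18, adjusted p = 0.014), and by 0.48 without MI vehicle replicate 3 (adjusted p = 0.023), with -0.28 after rescaling (adjusted p = 0.11). MI under prednisone gave 0.02 (adjusted p = 0.95).

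Fibroblast, macrophage and endothelial markers moved in the direction of Cd38 in MI against sham under vehicle and in prednisone against vehicle after MI. In MI against sham under prednisone the endothelial markers did not follow it. In MI against sham under vehicle 5 of 5 fibroblast, 5 of 5 macrophage, 4 of 5 endothelial and 2 of 4 mural markers rose, and 3 of 6 cardiomyocyte markers fell. Of all genes, 15.1% rose in that comparison and far fewer fell. In MI against sham under prednisone, where Cd38 was not called, 3 of 5 endothelial markers fell, where 14.1% of all genes fell. No fibroblast, macrophage or mural marker was called there. The marker counts are on the deposited scale. The summed macrophage markers lay between 78.5 and 101 TPM in sham vehicle, 149 and 234 in MI vehicle, and 81.9 and 162 in MI prednisone hearts. The fibroblast sums lay between 308 and 399, 639 and 735, and 227 and 389 TPM in the same order, and the endothelial sums between 145 and 163, 191 and 268, and 146 and 164. With prednisone after MI 5 of 5 fibroblast, 3 of 5 macrophage and 3 of 5 endothelial markers fell, where 34.9% of all genes fell. In the same comparison 3 of 6 cardiomyocyte and 3 of 4 atrial markers (Myl7, Sln and Myl4) rose. Far fewer of all genes rose there than the 4588 that fell. The summed atrial markers lay between 4335 and 6173 TPM in MI prednisone hearts, above the other 9, where they lay between 845 and 4106. Nppa, the atrial marker not called, held 4251, 2870 and 2837 TPM of the sums in MI prednisone hearts. The part of these cell types in the results was not tested, and in bulk tissue fewer cells of a type and less RNA per cell cannot be told apart. No B cell, T cell or adipocyte marker passed in any of the 5 comparisons by limma.

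The response to prednisone differed between infarcted and sham hearts for 2 of the 10 genes on the deposited scale, where 20.7% of all genes were lower by the same interaction term. The interaction was -0.76 for Nampt (SE 0.17, limma adjusted p = 0.015) and -0.81 for Cd38 (SE 0.25, adjusted p = 0.042). The call for Nampt held with each library left out in turn, whereas that for Cd38 was lost without any 1 of the 6 sham or 3 MI prednisone libraries. After rescaling neither passed (-0.23, adjusted p = 0.50, and -0.35, adjusted p = 0.20), and 1 gene, Nmrk1, was called higher (0.59, adjusted p = 0.032), where 4.29% of all genes were. The median interaction of all genes was -0.48 on the deposited scale and -0.02 after rescaling, and that of the 10 genes -0.57 and -0.05. Without MI vehicle replicate 3, Nampt, Nnt, Parp1 and Cd38 passed, all lower, where 22.6% of all genes did. Without replicates 1 and 2 of that group in turn 4 and 3 of the 10 passed. Over all fits with 1 library left out, between 1111 and 4520 of the 13158 genes passed in either direction.

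Among 42 other listed genes of the pathway, 31 passed the filter and 13 changed in at least 1 of the 5 comparisons, where 46.7% of all tested genes did. Of 11 listed genes of synthesis from tryptophan or nicotinic acid, 3 were tested and 0 changed on the deposited scale. They were Afmid, which acts on the tryptophan route, Naprt, which acts on nicotinic acid, and Nadsyn1, the NAD synthetase that both routes share. The 5 sirtuins beyond Sirt1 and Sirt3 all passed the filter and 0 of them changed. MI under vehicle raised 5 of the 31 genes and lowered 0, against 15.1% of all genes that rose. They were Pnp, a nucleoside phosphorylase, Nadk, the cytosolic NAD kinase, Nnmt, which methylates nicotinamide, and the transferases Parp3 and Tiparp. Pnp stood at 13.3, 12.5 and 11.7 TPM in sham vehicle and 26.2, 21.6 and 45.9 in MI vehicle hearts, with no overlap. Its change of 1.18 (SE 0.25, limma adjusted p = 0.016) also passed after rescaling (0.75, adjusted p = 0.031) and is the 1 of these 5 calls that did. Without MI vehicle replicate 3, Pnp was likewise the only 1 of the 31 genes called.

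Prednisone after MI lowered 11 of the 31 and raised 0, against 34.9% of all genes that fell, and after rescaling it lowered 5 and raised 4. Without MI vehicle replicate 3, Pnp, Nadk and Parp14 were no longer called, and Afmid (lower) and Parp4 (higher) were. The 5 called lower on both scales were Slc25a51, the mitochondrial NAD carrier, and the transferases Tnks, Tnks2, Parp11 and Tiparp. Of these 5, only Slc25a51 and Tnks2 were also called lower after the length correction. Tnks2, tankyrase-2, stood at 17.4, 19.7 and 18.1 TPM in sham vehicle hearts, 25.6, 24.3 and 23.7 in sham prednisone, 23.1, 23.5 and 39.7 in MI vehicle, and 9.00, 8.78 and 11.8 in MI prednisone. It fell by 1.42 (SE 0.19, limma adjusted p = 0.00094) and by 0.98 after rescaling (adjusted p = 0.0014). Slc25a51 stood at 25.9, 29.1 and 25.9 TPM in sham vehicle hearts, 26.2, 24.0 and 28.5 in sham prednisone, 27.6, 25.1 and 39.1 in MI vehicle, and 13.1, 14.2 and 16.2 in MI prednisone hearts. For both genes all 3 MI prednisone hearts lay below the other 9. Slc25a51 fell by 1.01 (SE 0.16, adjusted p = 0.0015) and by 0.56 after rescaling (adjusted p = 0.0050).

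MI under prednisone lowered 5 of the 31 (Slc25a51, Nadk2, Nudt12, Tnks and Tnks2) and raised 1, Parp4, against 14.1% and 2.73% of all genes. Of these calls, only those of Slc25a51, Tnks2 and Parp4 were kept after the length correction. Nadk2, the mitochondrial NAD kinase, lay between 11.6 and 13.6 TPM in sham prednisone and between 5.85 and 9.12 in MI prednisone hearts, a change of -0.66 (SE 0.15, limma adjusted p = 0.012), and of -0.58 after rescaling (adjusted p = 0.076). Nudt12, which hydrolyses NADH and NADPH, changed by -0.59 (SE 0.17, adjusted p = 0.033). Parp4, the vault-associated transferase, stood at 4.38, 4.72 and 4.85 TPM in sham prednisone and at 8.34, 8.23 and 8.41 in MI prednisone hearts and rose by 0.72 (SE 0.16, adjusted p = 0.012) and by 0.81 after rescaling (adjusted p = 0.0012). Prednisone in sham hearts changed 0 of the 31.

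The genes whose log2(TPM + 1) followed Nampt most closely over the 12 libraries, among 8115 with a mean of at least 5 TPM, were Mpv17, Tmem94 and Abcd3 (Pearson r = 0.978, 0.978 and 0.974). Those closest to Nmrk2 were Gdf15, C1qtnf5 and Postn (r = 0.950, 0.939 and 0.934). The points share the 4 groups, so these are descriptions. Gdf15, a stress-induced cytokine, stood at 5.39, 17.2 and 9.33 TPM in MI vehicle hearts against at most 1.03 in sham vehicle, and like Nmrk2 it was highest in MI vehicle replicate 2 and in MI prednisone replicate 1 within their groups. Postn, the matricellular periostin, stood at 44.0, 119 and 76.4 TPM in MI vehicle and 79.0, 57.5 and 37.9 in MI prednisone hearts, with the same libraries highest.

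Promoter windows of 300 bases, most of them upstream of the start and taken from RefSeq on GRCm38.p6, were present for 9 of the 10 genes (11 windows, all but Nnt). The E-box CACGTG, which reads the same on both strands and is the letter pattern bound by the circadian activator Clock and its partner, was searched because injections were timed to lights-on. It occurs in 2349 of 32851 windows (7.15%) and in those of 2 of the 9 genes, Parp1 and Sirt1. Of the 5 genes that fell with prednisone after MI on the deposited scale, these 2 hold it, Nampt and Cd38 do not, and Nnt has no window. The 2 windows with a match are shown with the E-box in capitals, 5′ to 3′ in the direction of the gene: Parp1 at chr1:180568641-180568940 on the plus strand and Sirt1 at chr10:63338986-63339285 on the minus strand.
Parp1: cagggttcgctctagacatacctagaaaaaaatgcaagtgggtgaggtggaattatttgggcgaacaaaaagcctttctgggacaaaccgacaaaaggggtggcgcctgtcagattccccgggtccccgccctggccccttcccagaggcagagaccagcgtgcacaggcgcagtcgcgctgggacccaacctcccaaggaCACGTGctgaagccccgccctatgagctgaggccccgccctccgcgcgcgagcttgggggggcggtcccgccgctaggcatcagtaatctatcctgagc
Sirt1: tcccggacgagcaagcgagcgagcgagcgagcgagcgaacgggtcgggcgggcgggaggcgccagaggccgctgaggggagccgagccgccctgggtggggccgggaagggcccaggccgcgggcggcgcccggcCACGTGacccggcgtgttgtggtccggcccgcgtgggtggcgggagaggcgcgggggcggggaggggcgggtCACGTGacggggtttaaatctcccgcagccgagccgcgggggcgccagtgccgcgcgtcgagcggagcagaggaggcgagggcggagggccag
The full glucocorticoid response element, written as AGAACA, any 3 bases and TGTTCT and searched on both strands, occurs in 3 of the 32851 windows and in 0 of the 11. So rare a pattern would be absent from almost any 11 windows, so the 0 tells nothing of these genes. A match is a description of letters in a window, not a site. Likewise the lack of a match in these windows is not the lack of a site.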

How the data were processed

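Per the submitters' processing notes, Trimmomatic, HISAT2 and kallisto and the mm10 build (the GRCm38 assembly) were used; their versions, roles and the annotation release are not given in the sources used here. The authors deposited TPM per transcript for 12 libraries, each column summing to 1000000, and 0 value columns lacked a sample. Transcripts were summed by symbol. Genes at 1 TPM or more in at least 3 of 12 libraries were tested on log2(TPM + 1) with limma 3.58.1 in R 4.3.3 (empirical Bayes with trend, 4 group means, all 12 libraries), with Benjamini-Hochberg adjustment over all tested genes in each of 5 comparisons and a call at an adjusted p under 0.05. Single transcripts were tested in the same way, and balance without the trend. A fold on the log2(TPM + 1) scale understates the change of low genes. The script was tested on simulated data.

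Named were all 10 genes, their transcripts with a mean of at least 1 TPM, pathway genes called in at least 1 comparison, and the 3 genes most like Nampt and Nmrk2 among those with a mean of at least 5 TPM. Members and lists were chosen with earlier results of these data known. The balance test was added after seeing the data. Lengths came from GENCODE M21 and matched 94.7% of rows; 86.1% of tested genes had a length. Alternatives were median-ratio rescaling, a pseudocount of 0.1, no filter, no trend, the compared groups alone, the replicate number as a block, the length correction, the most abundant transcript and each library left out.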

Additional observations from a re-analysis of the deposited data

Results flagged for a closer look

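In 6 results of the 10 genes the effect of prednisone differed between infarcted and sham hearts by the interaction term (limma, adjusted p under 0.05). For whole genes these were Nampt, with an interaction of -0.76, and Cd38, with -0.81 on the log2 scale. Nampt was lower with prednisone in infarcted hearts (-0.61) and not called in sham hearts (0.15), and Cd38 likewise (-0.67 and 0.14). Neither interaction passed after median-ratio rescaling.

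For transcript balance the interactions were -2.45 for Sirt1-201, 2.54 for Nnt-201, -2.48 for Nnt-202 and -1.10 for Nampt-202. Nnt-201 and Nnt-202 make up nearly all of their gene's TPM, so their values are mirror images and amount to 1 observation. Of all 17769 transcripts tested for balance, 18.6% had an interaction that passed. All 4 also passed without MI vehicle replicate 3 (adjusted p = 0.012, 0.016, 0.014 and 0.049).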

How the results depend on the processing

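Of 985 refits of the 10 genes, summed over transcripts or by their most abundant transcript, 848 kept their direction and their side of the threshold. A further 73 lost a call, 23 gained one and 41 changed sign with no call on either side. The 848 include results that were called neither in the main fit nor in the refit. For the 10 genes, MI under vehicle (2 called) gave 1 without the filter, 0 with only the compared groups and 1 with the length correction. The call with the length correction was Nampt, lower, and the 2 after rescaling were Nampt and Nmrk1, both lower. None of these was among the 2 of the main fit. MI under prednisone (3) gave 5 with only the compared groups and 1 with the length correction. Prednisone after MI (5, all lower) gave 1 after rescaling, 2 without the filter, and 0 with only the compared groups or the length correction. The call after rescaling was Nmrk1, higher, and not among the 5. Prednisone in sham hearts gave 0 throughout. The interaction (2, both lower) gave 1 after rescaling, 1 without the filter, 0 with the length correction and 5 from the most abundant transcript of each gene. Its call after rescaling was again Nmrk1, higher, and not among the 2. Fitting only the compared groups gives no interaction. For their transcripts, MI under vehicle (1) gave 0 after rescaling, without the filter, without the trend, with only the compared groups and with the length correction. Prednisone after MI (7) gave 3 with only the compared groups, and the interaction (7) gave 2 without the filter, 4 without the trend and 4 with the length correction. Of all genes, MI under vehicle (2100) called 850 after rescaling, 1068 without the filter, 2 with only the compared groups and 560 with the length correction. MI under prednisone (2213) called 3344 after rescaling and 1385 with the length correction. Prednisone after MI (4917) called 808 with only the compared groups and 1841 with the length correction, and the interaction (2797) called 1141 after rescaling and 237 with the length correction. With fewer libraries fewer residual degrees of freedom remain; the cause of the other shifts was not tested.

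With 1 library left out at a time, the counts for the 10 genes ranged from 0 to 2 (MI under vehicle), 2 to 4 (MI under prednisone), 2 to 5 (prednisone after MI) and 1 to 4 (interaction). Those of all genes ranged from 120 to 5631, 1027 to 3971, 3245 to 6274 and 1111 to 4520 in the same order, and from 4 to 18 for prednisone in sham hearts (15). Those of the transcripts ranged from 0 to 3, 6 to 9, 5 to 9 and 2 to 7. Nnt-201 kept its balance call for prednisone after MI in each of these fits (1.99 to 2.79).

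Same-numbered libraries did not deviate together (r from -0.58 to 0.14 over 12 pairs), so the numbers were not taken as pairs. With the replicate number as a block, MI under vehicle called 1 of the 10 genes (Nmrk2 lost), 0 transcripts and 1056 of all genes, prednisone in sham hearts 7 of all genes, and the interaction 1 of the 10 genes (Cd38 lost) and 3 transcripts. TPM carry no depth, so what depth limits could not be assessed.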

Other observations

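Of the kynurenine route to NAD, which starts from tryptophan, 4 genes were far higher in MI vehicle replicate 3 than elsewhere. In MI vehicle replicate 3, Kmo stood at 3.39 TPM, Haao at 4.43, Kynu at 1.61 and Qprt at 0.83, whereas the other 11 libraries reached at most 0.89, 0.68, 0.27 and 0.16 in the same order. The first enzymes of the route did not follow: Ido1 was lowest in that library (0.08 TPM), and Ido1 and Tdo2 were highest in MI prednisone replicate 2 (0.35 and 0.41 TPM). These genes failed the filter on low values and were picked out after their values were seen.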
